A study of Mus musculus with 10 samples.

Results

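Neurotransmitter receptor genes were followed across cultured mouse neural stem cells (NSC), induced pluripotent stem (iPS) cells and NSC made from iPS cells. A gene was a member if its symbol was that of a subunit or receptor for glutamate, GABA, glycine, acetylcholine, serotonin or dopamine, and each gene was read from the probe set whose mean over all 10 arrays was highest, called its brightest. This gave 79 member genes of 18193 measured genes, and 150 member probe sets of 45101 on the array. The members comprised 4 AMPA, 5 kainate, 6 NMDA and 2 delta-type glutamate receptor genes, 6 metabotropic glutamate receptor genes, 15 GABA-A and 1 GABA-B genes, 5 glycine receptor genes, 15 nicotinic and 3 muscarinic acetylcholine receptor genes, 13 serotonin receptor genes and 4 dopamine receptor genes. One of the delta-type symbols, Grid2ip, names a protein that binds the delta receptor and is not itself a receptor. Subunit genes outside these 79 were not analysed here.

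All cells carried the OG2 Oct4-eGFP transgene, a reporter of Oct4, and Rosa26 neo/lacZ, and the donor mice were crossed with ICR females. Per the labels, 4 arrays held NSC derived from adult brain, 3 held iPS cells made from such NSC with a pMX-based retrovirus carrying mouse Oct4 alone, and 3 held NSC differentiated from those iPS cells. The iPS colonies were picked by their GFP signal and grown on mouse embryonic fibroblast (MEF) feeder cells, and the labels do not say how many clones, cultures or animals the replicates came from. The p-values therefore measure the spread between these arrays, which may be technical. The ages of the mice are given only as adult.

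Marker genes went against the labels of both derived groups. Pou5f1, which encodes Oct4 itself, had a mean log2 level of 4.66 ± 0.15 (SD, n = 3) on the arrays labelled iPS, 13.29 ± 0.25 (SD, n = 3) on those labelled iPS-derived NSC and 4.55 ± 0.05 (SD, n = 4) on the brain NSC arrays. Zfp42, another pluripotency gene, showed the same order with means of 3.54, 12.44 and 3.50. Fabp7 and Olig2, markers of neural progenitors, ran the other way, with means of 14.17, 4.43 and 14.45 for Fabp7 and 12.78, 6.53 and 12.47 for Olig2. The labels were kept as deposited, the groups are called the iPS-labelled, iPS-NSC-labelled and brain NSC arrays, and every direction below rests on labels that these markers contradict.

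Most of these receptors are known from neurons, where they turn a released transmitter into an electrical or chemical signal. Ionotropic receptors, namely the AMPA, kainate, NMDA, GABA-A, glycine and nicotinic families, are ion channels assembled from several subunits. Metabotropic receptors, such as the Grm, GABA-B, muscarinic and dopamine families and most serotonin receptors, signal through G proteins and change the activity of enzymes and channels inside the cell. Neural stem cells and astrocytes also express some of these genes, and transmitters are known to act on dividing neural progenitors.

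The bases upstream of the transcription start are shown for 4 of the 7 members called lower and the 1 member called higher on the iPS-NSC-labelled arrays, so that these promoters can be set beside each other. No promoter was available for Grm5 or Gria3, and that of Grik5, with 8 CpG pairs at 75.2% GC, was not shown. Each run is the 250 bases before the start, 5′ to 3′ on the strand of the gene, from RefSeq on GRCm38.p6, with CpG pairs in capitals. Grm3 lies at chr5:9725353-9725602 on the minus strand, Gria4 at chr9:4796235-4796484 on the minus strand, Gabrg1 at chr5:70842618-70842867 on the minus strand, Glrb at chr3:80913661-80913910 on the minus strand and Chrna9 at chr5:65966874-65967123 on the plus strand.
Grm3: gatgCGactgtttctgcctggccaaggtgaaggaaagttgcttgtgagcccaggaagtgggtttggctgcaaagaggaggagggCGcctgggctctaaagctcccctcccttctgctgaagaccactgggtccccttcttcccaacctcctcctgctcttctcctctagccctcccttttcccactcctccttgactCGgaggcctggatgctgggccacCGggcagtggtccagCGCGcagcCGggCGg
Gria4: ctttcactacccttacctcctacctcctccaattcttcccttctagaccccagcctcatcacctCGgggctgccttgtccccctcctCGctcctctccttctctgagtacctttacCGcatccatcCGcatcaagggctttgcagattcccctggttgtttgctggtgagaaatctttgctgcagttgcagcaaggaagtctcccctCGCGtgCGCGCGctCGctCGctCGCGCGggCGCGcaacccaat
Gabrg1: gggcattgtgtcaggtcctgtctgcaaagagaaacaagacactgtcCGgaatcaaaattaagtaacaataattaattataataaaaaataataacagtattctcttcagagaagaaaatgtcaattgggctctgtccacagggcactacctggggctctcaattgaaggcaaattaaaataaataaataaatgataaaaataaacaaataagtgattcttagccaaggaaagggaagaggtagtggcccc
Glrb: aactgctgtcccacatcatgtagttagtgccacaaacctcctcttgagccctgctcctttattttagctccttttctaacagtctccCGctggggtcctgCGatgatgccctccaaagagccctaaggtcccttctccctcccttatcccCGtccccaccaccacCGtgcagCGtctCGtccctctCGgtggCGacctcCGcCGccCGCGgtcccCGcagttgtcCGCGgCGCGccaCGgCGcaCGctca
Chrna9: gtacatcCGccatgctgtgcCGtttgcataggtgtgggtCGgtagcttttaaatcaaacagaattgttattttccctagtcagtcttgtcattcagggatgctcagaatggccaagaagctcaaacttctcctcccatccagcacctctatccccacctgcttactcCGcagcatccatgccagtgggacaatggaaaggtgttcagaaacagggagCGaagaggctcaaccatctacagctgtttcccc

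These promoters differed widely in CpG content. Gabrg1 held 1 CpG pair at 35.6% GC and Chrna9 5 at 50.0% GC, while Grm3 held 8 at 62.4% GC, Gria4 16 at 58.8% GC and Glrb 20 at 62.4% GC. Over all 32851 RefSeq promoters of the same length the median was 6 CpG pairs, with quartiles of 2 and 16. The table held 72 promoters of 60 of the 79 members, whose median was 9 and whose range was 0 to 42. The shown members that fell thus included a promoter below the lower quartile of all promoters and others at or above the upper quartile.

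Short motifs were searched on both strands of these promoters, and none of the motifs contains another. The GC box GGGCGG was in 35 of the 72 member promoters (48.6%) against 32.7% of all promoters, and among the 5 shown it was in those of Glrb and Grm3. The E-box CAGCTG was in 9 (12.5%, against 13.0% of all) and the RE1 partial motif CAGCACC in 5 (6.94%, against 5.73%), and the Chrna9 promoter held both. The TATA box TATAAA was in 6 (8.33%, against 12.4%), the Sox core ACAAAG in 3 (4.17%, against 16.5%) and the octamer ATGCAAAT in 0 (against 1.6%). Such matches describe letters and not bound sites.

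The receptor genes as a class were dim on these arrays. On all 10 arrays, 51 of the 79 members (64.6%) lay under the median of all probe sets, which was 5.65 to 5.72 on the log2 scale, against 5443 of the 18193 genes (29.9%). No member lay over the upper quartile, which was 7.80 to 8.12, on all 10 arrays, whereas 27.0% of genes did. On the 4 brain NSC arrays 3 members stayed above that quartile throughout, namely Gabrg1, Gria4 and Grm5, and on the 3 iPS-labelled arrays Grik5 joined them. On the iPS-NSC-labelled arrays 0 members did, against 35.0% of genes. A log2 level belongs to its probe set, since probe sets differ in sensitivity, so no order of genes is read from these levels.

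Comparisons were tested with limma over all genes, and a gene is called higher or lower where the Benjamini-Hochberg adjusted p was under 0.05 and the difference at least 2-fold, which is 1 on the log2 scale. Between iPS-labelled and brain NSC arrays, 0 of 79 members were called higher, against 0.951% of all genes, and 1 was called lower, against 0.89%. At an unadjusted p under 0.05 in limma, 8 members were higher and 6 lower in that comparison, against 17.7% and 14.8% of all genes. At that p, 30 members were higher and 13 lower on iPS-NSC-labelled against iPS-labelled arrays (37.2% and 27.6% of all genes), and 28 and 11 against brain NSC (39.4% and 26.6% of all genes). On iPS-NSC-labelled against iPS-labelled arrays, 1 member was called higher and 7 lower (8.86% of members), against 10.8% and 14.4% of all genes. On iPS-NSC-labelled against brain NSC arrays, 1 was called higher and 6 lower (7.59%), against 11.3% and 14.0%. At the 2-fold threshold each member share lay below that of all genes except for the single lower call in the first comparison (1.27% of members). At the unadjusted p, 38.0% of members were higher on iPS-NSC-labelled against iPS-labelled arrays, just above the 37.2% of all genes. The other member shares at that p lay below those of all genes. The 3 comparisons share arrays, so their values are given side by side and are not independent.

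**Figure D1:**
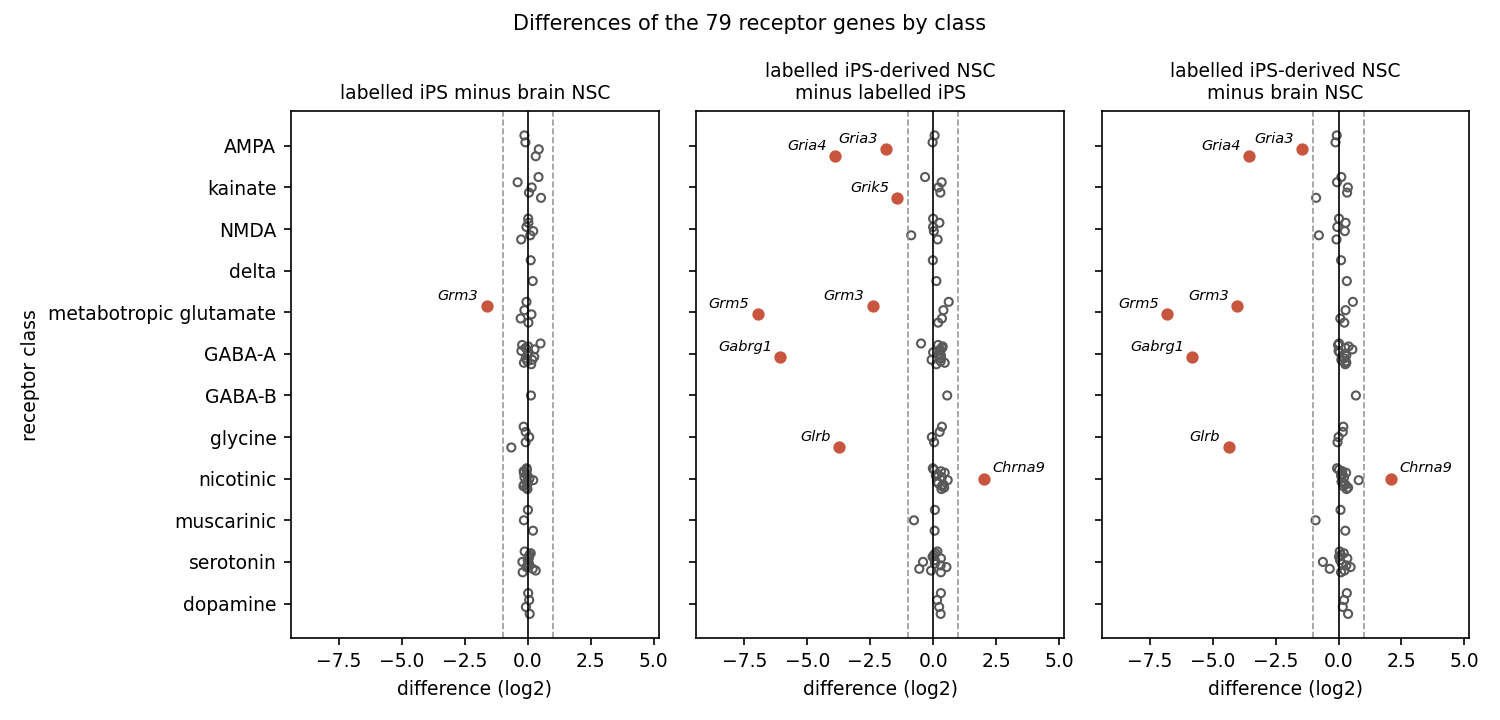
Differences of the 79 receptor genes in log2 units (x axis) by receptor class (y axis), for the 3 comparisons of the labelled groups. Filled points are members past the threshold and are named, open points are not, the dashed lines mark 2-fold, and most points lie between those lines.

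The middle of the receptor genes moved little in each comparison. The median difference of the 79 members was 0.007 between iPS-labelled and brain NSC arrays, 0.18 between iPS-NSC-labelled and iPS-labelled arrays and 0.146 between iPS-NSC-labelled and brain NSC arrays, beside 0.008, 0.123 and 0.134 over all genes. Differences of under 0.5 in size were seen in 75 (94.9%), 64 (81.0%) and 64 (81.0%) of the members, against 87.8%, 55.3% and 55.5% of all genes. Without the fold minimum, 3 members passed as higher and 4 as lower between iPS-labelled and brain NSC arrays, where 11.1% and 9.29% of all genes did. The numbers were 25 and 13 between iPS-NSC-labelled and iPS-labelled arrays, beside 34.6% and 26.6% of genes. They were 25 and 11 between iPS-NSC-labelled and brain NSC arrays, beside 36.9% and 25.8% of genes.

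The metabotropic glutamate receptor genes gave the largest difference of any member. Grm5 encodes mGluR5, a receptor coupled to phospholipase C that astrocytes and neural progenitors also use. Its level was 11.01, 10.88 and 10.94 on the iPS-labelled arrays, 3.91, 3.79 and 4.23 on the iPS-NSC-labelled arrays, and 10.87, 10.80, 10.75 and 10.75 on the brain NSC arrays. The iPS-NSC-labelled arrays were all low and far from the others, while the iPS-labelled arrays lay just above the brain NSC arrays without overlap. The difference was -6.96 ± 0.11 (SE, limma adjusted p = 9.46e-15) against the iPS-labelled and -6.81 ± 0.10 (SE, limma adjusted p = 5.56e-15) against the brain NSC arrays, and 0.15 ± 0.10 (SE, limma adjusted p = 0.368) between the latter pair. Among the group means of all probe sets other than controls, the Grm5 mean lay at percentile 94.9 on iPS-labelled and 94.5 on brain NSC arrays. On the iPS-NSC-labelled arrays it lay at percentile 15.8.

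Grm3 encodes mGluR3, a receptor that lowers cyclic AMP and is found on astrocytes as well as neurons. By brightest probe sets, Grm3 was the only member called in all 3 comparisons. Its level was 6.20, 6.39 and 6.22 on the iPS-labelled arrays, 4.18, 3.62 and 3.81 on the iPS-NSC-labelled arrays, and 8.20, 8.03, 7.85 and 7.49 on the brain NSC arrays. The 3 groups did not overlap, with the iPS-labelled arrays in the middle. The iPS-labelled arrays were lower than the brain NSC arrays by -1.62 ± 0.16 (SE, limma adjusted p = 2.85e-05). The iPS-NSC-labelled arrays differed by -2.40 ± 0.17 (SE, limma adjusted p = 3.24e-08) from the iPS-labelled and by -4.03 ± 0.16 (SE, limma adjusted p = 5.6e-11) from the brain NSC arrays. Grm3 was read from its only probe set, while other sets of Grm5 and Htr1b were also called in all 3 comparisons.

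The other metabotropic members, Grm2, Grm4, Grm7 and Grm8, were not called and had group means of 3.76 to 7.32. Grm2, like Grm3 a receptor that lowers cyclic AMP, was chosen after its values were seen. It had means of 6.70, 7.32 and 6.76 in the iPS-labelled, iPS-NSC-labelled and brain NSC groups. Its direction on the iPS-NSC-labelled arrays was thus opposite to that of Grm3, at a size under 2-fold. The RNA quality controls moved with some of these groups: the 3′ minus 5′ difference of the Actb control was 0.50 to 0.67, 0.42 to 0.57 and 0.15 to 0.43 in the 3 groups, and that of Gapdh was -0.11 to -0.01, -0.12 to 0.01 and -0.25 to -0.12. Their part in the results against brain NSC was not tested.

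**Figure D2:**
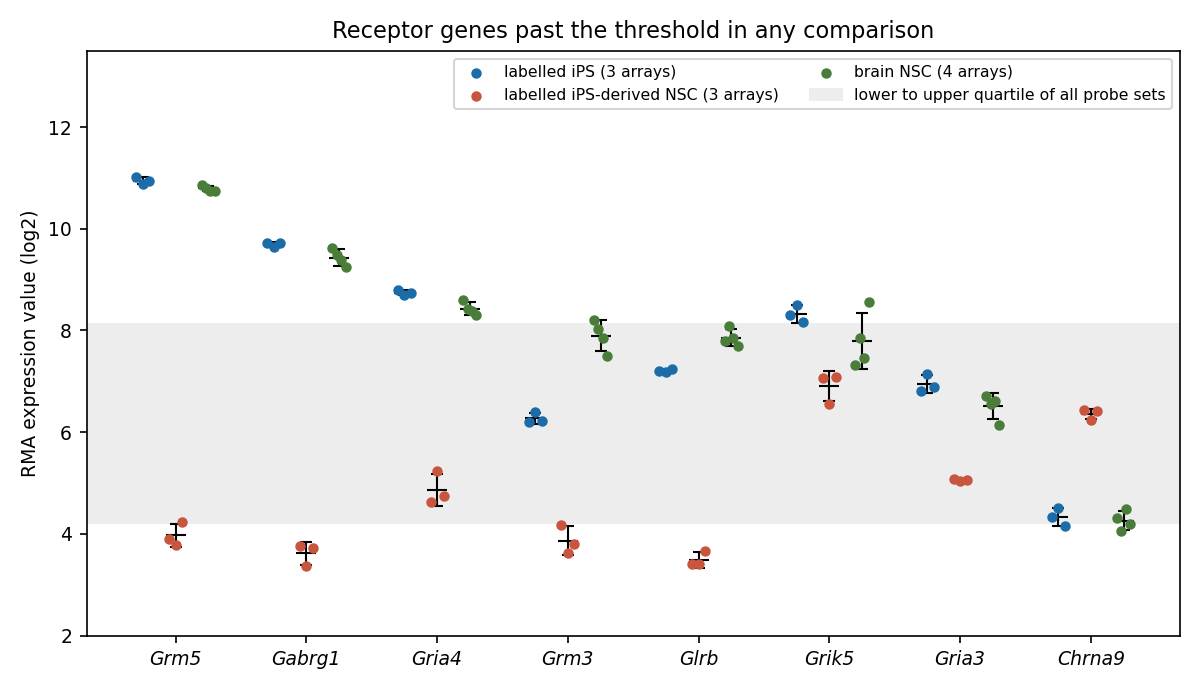
RMA level in log2 units (y axis) of the 8 receptor genes past the threshold in any comparison (x axis), with 1 point per array and bars for the mean and SD of each labelled group. The 7 genes Grm5, Gabrg1, Gria4, Grm3, Glrb, Grik5 and Gria3 are lowest on the iPS-NSC-labelled arrays and Chrna9 is highest there, and the grey band spans the quartiles of all probe sets.

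AMPA receptors carry most fast excitation in the brain and are assembled from the products of Gria1 to Gria4. On the iPS-NSC-labelled arrays, 2 of the 4 genes, Gria3 and Gria4, were called lower against either other group by their brightest probe sets. Of all genes, 14.4% were called lower against the iPS-labelled and 14.0% against the brain NSC arrays. Gria4 was 8.80, 8.69 and 8.74 on the iPS-labelled arrays, 4.63, 5.23 and 4.74 on the iPS-NSC-labelled arrays, and 8.60, 8.42, 8.38 and 8.31 on the brain NSC arrays. The iPS-NSC-labelled arrays lay over 3 log2 units below the rest, with differences of -3.88 ± 0.14 (SE, limma adjusted p = 2.14e-11) and -3.56 ± 0.13 (SE, limma adjusted p = 2.19e-11). The iPS-labelled and brain NSC arrays did not overlap either, and their difference of 0.32 ± 0.13 (SE) had a limma adjusted p of 0.109.

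Gria3 was 6.82, 7.15 and 6.88 on the iPS-labelled arrays, 5.08, 5.05 and 5.07 on the iPS-NSC-labelled arrays, and 6.72, 6.56, 6.61 and 6.14 on the brain NSC arrays. The iPS-NSC-labelled arrays were again the low ones, with differences of -1.88 ± 0.14 (SE, limma adjusted p = 4.17e-08) and -1.44 ± 0.13 (SE, limma adjusted p = 3.07e-07). With the mean of their probe sets, Gria3 differed by -2.86 and -2.50, and Gria4 by -2.26 against brain NSC. The second Gria3 probe set gave larger differences of -3.85 ± 0.17 and -3.56 ± 0.16 (SE). Gria1 was dim throughout, with means of 3.43, 3.49 and 3.56. Gria2, whose subunit keeps calcium out of the channel, had means of 5.54, 5.51 and 5.63 by its brightest probe set.

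Kainate receptors are related glutamate channels, and Grik5 encodes a subunit that works only together with those of Grik1 to Grik3. Grik5 was 8.31, 8.50 and 8.16 on the iPS-labelled arrays, 7.07, 6.56 and 7.09 on the iPS-NSC-labelled arrays, and 7.33, 7.85, 7.46 and 8.56 on the brain NSC arrays. The iPS-NSC-labelled arrays were lowest without overlap, but the brain NSC arrays spread widely, with a mean of 7.80 ± 0.55 (SD, n = 4), and overlapped the iPS-labelled ones. Grik5 was read from its only probe set. The difference of -1.42 ± 0.26 (SE, limma adjusted p = 0.000272) from the iPS-labelled arrays was called. That of -0.89 ± 0.24 (SE, limma adjusted p = 0.00521) from the brain NSC arrays was under 2-fold, and it reached -1.05 without brain NSC replicate 1 and -1.0 without replicate 3, where it was called. The other 4 kainate genes had means of 3.40 to 6.14 by their brightest probe sets.

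NMDA receptors need both magnesium release and glutamate to open, and their GluN2 and GluN3 subunits are encoded by Grin2a to Grin2d, Grin3a and Grin3b. None of the 6 NMDA genes analysed here was called by limma in any comparison, and group means ran from 3.92 to 6.74. At an unadjusted p under 0.05, 1 was higher and 1 lower in iPS-labelled against brain NSC, 1 and 1 in iPS-NSC-labelled against iPS-labelled, and 2 and 1 in iPS-NSC-labelled against brain NSC, to be read beside the shares of all genes given above. Grin3b had means of 6.48, 6.66 and 6.74. Grin3a, chosen after its values were seen, came nearest to the threshold, with means of 5.43, 4.56 and 5.34. The delta-type genes Grid1 and Grid2ip were not called either, with means of 4.50 to 5.94, and neither had an unadjusted p under 0.05 except for 1 higher value against brain NSC.

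GABA-A receptors are chloride channels of 5 subunits, usually alpha, beta and gamma, and 1 of the 15 genes was called. This count is to be read beside the shares of all genes called, given for the whole set above. Gabrg1, which encodes the gamma1 subunit, was 9.72, 9.64 and 9.72 on the iPS-labelled arrays, 3.77, 3.36 and 3.73 on the iPS-NSC-labelled arrays, and 9.62, 9.49, 9.39 and 9.24 on the brain NSC arrays. The iPS-NSC-labelled arrays lay about 6 log2 units below the others, at -6.07 ± 0.12 (SE, limma adjusted p = 8.76e-14) and -5.81 ± 0.12 (SE, limma adjusted p = 5.3e-14). The iPS-labelled and brain NSC arrays did not overlap, and differed by 0.26 ± 0.12 (SE, limma adjusted p = 0.141).

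Gabrg1 lies in a row of GABA-A subunit genes, and it was the only one of the row that was called. In the RefSeq order of GRCm38.p6 it lies on chromosome 5 beside Gabra2, followed after 1 intervening protein-coding gene by Gabra4 and then Gabrb1. None of these neighbours was called by limma through any of its probe sets, although Gabra2 and Gabra4 passed the adjusted p in some comparisons at under 2-fold. Gabra2 had means of 4.62, 4.14 and 4.11, Gabra4 of 3.68, 4.06 and 3.66 and Gabrb1 of 4.44, 4.69 and 4.69. The 14 other GABA-A genes together had means of 3.41 to 5.16, so no alpha or beta subunit gene reached the lowest array median of 5.65 in any group mean. Gabbr1, a subunit of the metabotropic GABA-B receptor, was 6.97, 7.05 and 6.79 on the iPS-labelled, 7.42, 7.56 and 7.51 on the iPS-NSC-labelled and 6.61, 7.0, 6.77 and 6.86 on the brain NSC arrays. By this brightest of its 4 probe sets, Gabbr1 was higher on the iPS-NSC-labelled arrays without overlap, at 0.56 ± 0.11 (SE, limma adjusted p = 0.00074) and 0.69 ± 0.11 (SE, limma adjusted p = 6.75e-05), both under 2-fold. Its other sets overlapped between groups, with differences of 0.04 to 0.41 against iPS-labelled and -0.07 to 0.33 against brain NSC. None of these passed the adjusted p.

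Glycine receptors pair ligand-binding alpha subunits with the beta subunit encoded by Glrb, which ties the channel to the scaffold gephyrin. Glrb was 7.20, 7.19 and 7.24 on the iPS-labelled arrays, 3.40, 3.40 and 3.66 on the iPS-NSC-labelled arrays, and 7.80, 8.09, 7.85 and 7.70 on the brain NSC arrays. The 3 groups did not overlap, with the iPS-NSC-labelled arrays far below. They differed by -3.72 ± 0.11 (SE, limma adjusted p = 3.86e-12) from the iPS-labelled and by -4.37 ± 0.11 (SE, limma adjusted p = 3.47e-13) from the brain NSC arrays. Between iPS-labelled and brain NSC arrays the difference was -0.65 ± 0.11 (SE, limma adjusted p = 0.00103), under 2-fold. The alpha subunit genes Glra1 to Glra4 were not called and were dim in every group, with means of 3.25 to 4.23. Glrb lies beside Gria2 on chromosome 3, of which the brightest probe set was not called and another set was called lower against brain NSC.

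Nicotinic receptors are acetylcholine-gated channels, of which the subunits of Chrna1, Chrnb1, Chrnd, Chrne and Chrng form the muscle type and most others serve neurons. Chrna9, best known from the sensory hair cells of the inner ear, was the only member called higher in any comparison by its brightest probe set. It was 4.33, 4.51 and 4.15 on the iPS-labelled arrays, 6.43, 6.25 and 6.41 on the iPS-NSC-labelled arrays, and 4.31, 4.05, 4.49 and 4.20 on the brain NSC arrays. The iPS-NSC-labelled arrays were high without overlap and the other groups overlapped each other. The differences were 2.03 ± 0.13 (SE, limma adjusted p = 6.25e-09) and 2.10 ± 0.12 (SE, limma adjusted p = 1.86e-09).

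The Chrna9 result rested on 1 of its 3 probe sets. The other sets had group means of 3.52 to 3.90 and differences of 0.03 to 0.35, and with the mean over its probe sets the gene differed by 0.83 in both comparisons and was not called. Because its mean over the 10 arrays was under 5, it was also not tested when dim genes were left out. The other 14 nicotinic genes had means of 3.85 to 6.66 by their brightest probe sets, among them Chrnd with 6.30, 6.66 and 6.47. They were not called, although in iPS-NSC-labelled against iPS-labelled arrays 9 of the 15 nicotinic genes were higher at an unadjusted p under 0.05 and 0 lower, and 6 were higher and 0 lower against brain NSC. Over all genes 37.2% and 39.4% were higher at that p in these comparisons. Chrnb1, chosen after its values were seen, had the largest of these differences against brain NSC, with means of 4.07, 4.65 and 3.85.

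Muscarinic, serotonin and dopamine receptors signal mostly through G proteins, and none of their 20 genes was called by limma through its brightest probe set. At an unadjusted p under 0.05 in iPS-NSC-labelled against iPS-labelled arrays, 0 muscarinic, 4 serotonin and 2 dopamine genes were higher, and 1, 2 and 0 were lower. Against brain NSC the numbers were 0, 3 and 2 higher and 1, 2 and 0 lower. Between iPS-labelled and brain NSC arrays only 1 serotonin gene, lower, had such a p. The shares of all genes at this p are those given for the whole set above. By brightest sets, Chrm1 had means of 5.85, 5.92 and 5.84, Htr1b of 7.37, 7.47 and 7.26 and Drd4 of 5.71, 6.01 and 5.63. The other Htr1b probe set was called in every comparison, and its values are given below. Chrm3 and Htr3a were chosen after their values were seen. Chrm3, which acts through phospholipase C, was 4.91, 4.86 and 4.82 on the iPS-labelled, 4.47, 4.06 and 3.78 on the iPS-NSC-labelled and 4.83, 5.10, 4.84 and 5.27 on the brain NSC arrays. Its iPS-NSC-labelled arrays were lowest without overlap, at a difference under 2-fold. Htr3a, the serotonin receptor that is an ion channel, had means of 7.08, 6.67 and 7.29.

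**Figure D3:**
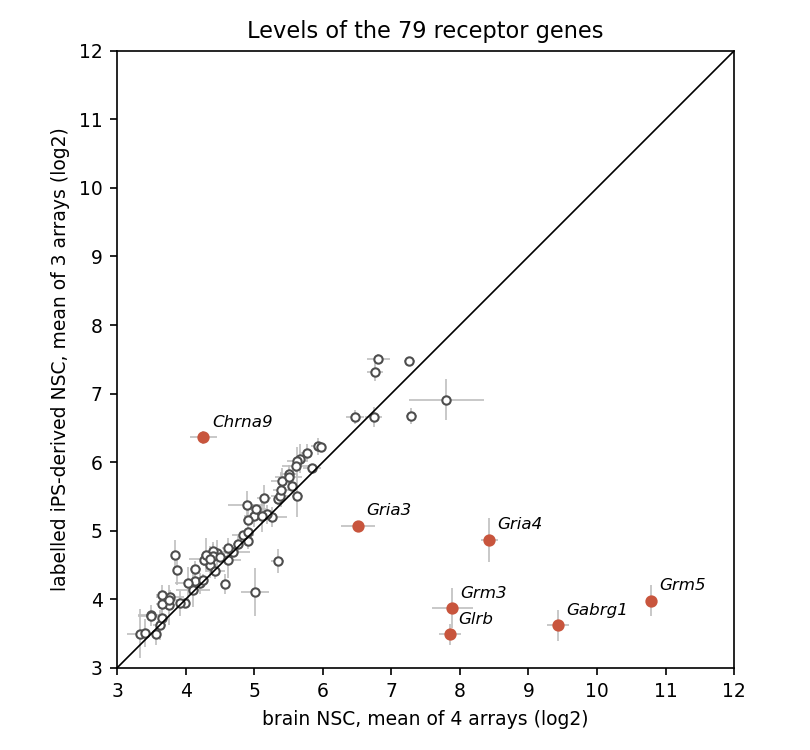
Mean log2 level of each of the 79 receptor genes on the 4 brain NSC arrays (x axis) against the 3 iPS-NSC-labelled arrays (y axis), with SD bars, the line of equal level and the called members named. The uncalled members lie near the line, Grm5, Gabrg1, Gria4, Grm3, Glrb and Gria3 lie to the right of it and Chrna9 lies above it.

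The difference between iPS-labelled and brain NSC arrays was smaller for most members. Apart from Grm3, the members that passed the adjusted p without 2-fold were named after their values were seen: Gabra2, Gria3 and Grik1 were higher on the iPS-labelled arrays, and Glrb, Grik2 and Grm7 lower. Grik1 had means of 3.83 and 3.40 in these groups, Grik2 of 4.86 and 5.26 and Grm7 of 4.63 and 4.91, all of them dim. The members not called in this comparison ranged in difference from -0.65 for Glrb to 0.53 for Grik5.

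Probe sets of 1 gene can read different stretches or isoforms of its RNA, and 47 of the 79 members had more than 1. Over single-symbol probe sets tested on their own, 3 of the 150 member probe sets (2.0%) were called in either direction between iPS-labelled and brain NSC arrays, against 2.38% of all. The count was 17 (11.3%) in each of the other comparisons, against 23.7% for iPS-NSC-labelled over iPS-labelled and 23.8% for iPS-NSC-labelled over brain NSC. The second probe sets of Grm5, Gabrg1 and Glrb were called lower on the iPS-NSC-labelled arrays as their brightest sets were, at -6.10, -4.75 and -3.71 against iPS-labelled and -4.96, -4.89 and -4.55 against brain NSC. Both further Gria4 sets were also called lower, at -1.22 and -2.79 against iPS-labelled and -1.21 and -2.01 against brain NSC. For these genes each set gave the same direction, and the size varied.

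Elsewhere the probe sets disagreed, and these genes were picked out after their values were seen. Htr1b, a serotonin receptor that lowers cyclic AMP, was flat by its brightest set, but its other set was 7.89, 7.75 and 7.99 on the iPS-labelled, 4.64, 4.32 and 4.67 on the iPS-NSC-labelled and 6.64, 6.84, 6.73 and 6.37 on the brain NSC arrays. None of these groups overlapped, and the differences were -3.34 ± 0.14 (SE, limma adjusted p = 1.04e-10), -2.10 ± 0.13 (SE, limma adjusted p = 5.36e-09) and, for iPS-labelled over brain NSC, 1.23 ± 0.13 (SE, limma adjusted p = 3.22e-05). The other set of Grm5 was also higher on iPS-labelled than on brain NSC arrays, at 1.15 ± 0.16 (SE, limma adjusted p = 0.00032), while the brightest set gave 0.15. That call was lost at 1.00 without brain NSC replicate 4.

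Grik3, a kainate receptor subunit gene, had means of 5.93, 6.14 and 5.77 by its brightest set and was not called. Its other set was 3.30, 3.18 and 3.11 on the iPS-labelled, 6.41, 6.60 and 6.66 on the iPS-NSC-labelled and 3.58, 3.37, 3.26 and 3.14 on the brain NSC arrays. It was high only on the iPS-NSC-labelled arrays, at 3.36 ± 0.12 (SE, limma adjusted p = 3.3e-11) and 3.22 ± 0.11 (SE, limma adjusted p = 2.14e-11). Chrna7, the neuronal alpha7 nicotinic subunit gene, was likewise higher there by its other set, at 1.81 ± 0.20 (SE, limma adjusted p = 2.79e-06) and 1.58 ± 0.18 (SE, limma adjusted p = 5.21e-06), with brightest-set means of 4.87, 5.22 and 5.00. A second set of Gria2 was lower against brain NSC, at -1.55 ± 0.13 (SE, limma adjusted p = 2.3e-07), where the brightest set gave -0.12. Which probe set reports the gene's RNA was not tested.

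**Figure D4:**
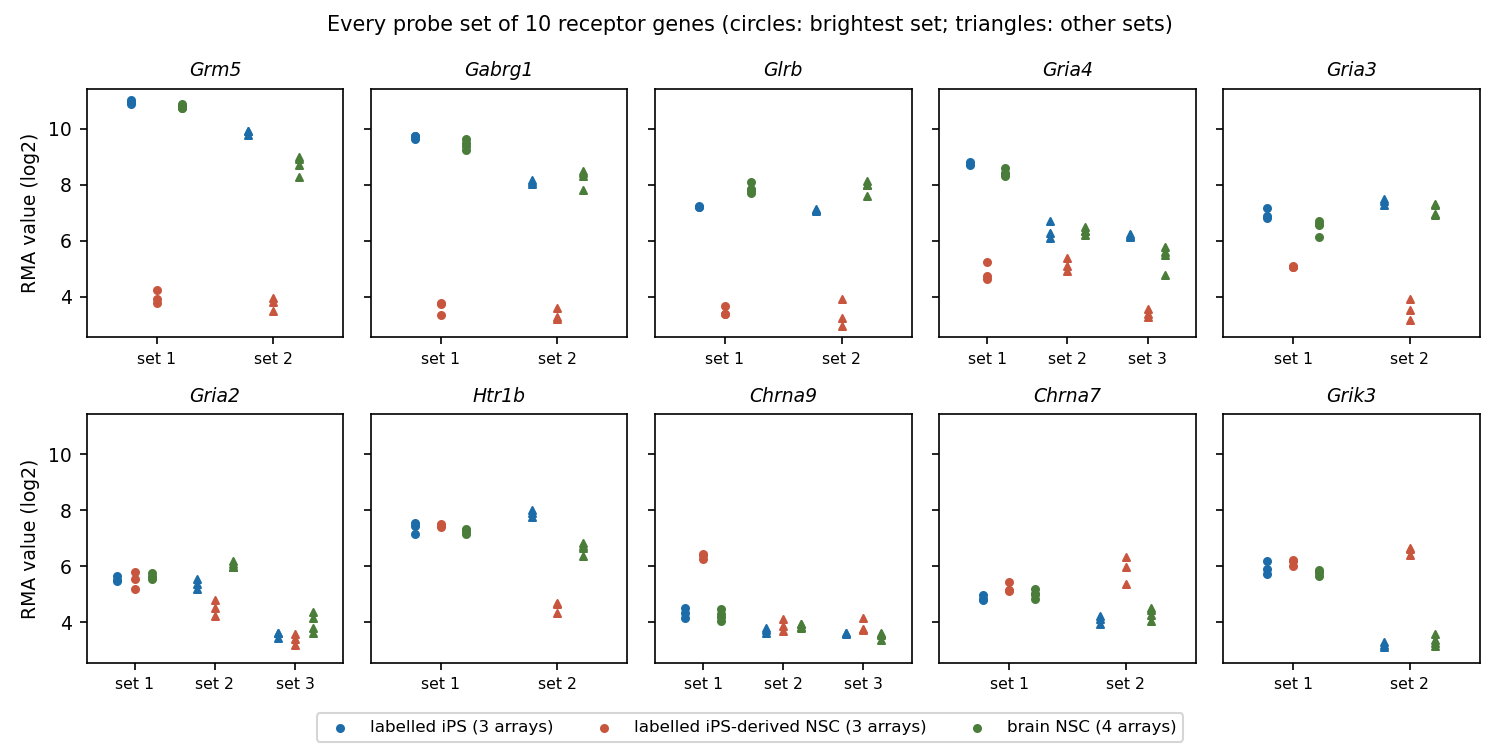
RMA level in log2 units (y axis) on each array for every probe set (x axis) of 10 receptor genes, coloured by labelled group, with circles for the brightest set and triangles for the others. In Grm5, Gabrg1, Glrb, Gria4 and Gria3 all sets are lowest on the iPS-NSC-labelled arrays, whereas in Htr1b, Chrna9, Chrna7 and Grik3 the sets differ.

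Receptors work with proteins that make, store and clear the transmitter. Of a list of 34 such genes 30 were measured, and on the iPS-NSC-labelled arrays 1 was called higher and 7 lower against either other group. Over all genes 10.8% were called higher and 14.4% lower against iPS-labelled arrays, and 11.3% and 14.0% against brain NSC. The median difference of the 30 was 0.13 against iPS-labelled and 0.08 against brain NSC. Ddc, whose enzyme makes dopamine and serotonin, was 3.89, 4.18 and 3.92 on the iPS-labelled, 10.11, 10.15 and 10.39 on the iPS-NSC-labelled and 3.82, 4.22, 4.06 and 3.85 on the brain NSC arrays. Ddc was thus high only on the iPS-NSC-labelled arrays, at 6.22 ± 0.13 (SE, limma adjusted p = 9.24e-14) and 6.23 ± 0.12 (SE, limma adjusted p = 4e-14), and with its probe sets averaged at 3.25 and 3.21. The glutamate transporter gene Slc1a3, shared with astrocytes, was lower at -3.90 ± 0.12 and -4.02 ± 0.11 (SE), the glycine transporter gene Slc6a9 at -2.33 ± 0.22 (SE) against iPS-labelled, and the GABA transporter gene Slc6a11 at -3.08 ± 0.12 (SE) against brain NSC. Averaged over their sets, Slc6a9 and Slc6a11 were still called, at -1.27 and -1.47. Slc1a2, another glutamate transporter gene, differed by -3.07 ± 0.22 and -3.37 ± 0.21 (SE) by its brightest set. With its sets averaged it was not called, at -0.59 and -0.68. Between iPS-labelled and brain NSC arrays 1 gene of the list was called, Slc18a2, the vesicular monoamine transporter gene, which was lower at -1.40 ± 0.21 (SE, limma adjusted p = 0.000602). Over all genes 0.951% were called higher and 0.89% lower in that comparison.

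Scaffold and auxiliary proteins hold receptors at the membrane and tune their gating. Of 41 listed genes 38 were measured. On iPS-NSC-labelled arrays 2 were called higher and 13 lower against iPS-labelled arrays, and 3 higher and 14 lower against brain NSC. Over all genes 10.8% were called higher and 14.4% lower in the first comparison, and 11.3% and 14.0% in the second. The medians of the list were -0.09 and 0.02. Neto2, an auxiliary subunit gene of kainate receptors, was 11.17, 11.36 and 11.20 on the iPS-labelled, 6.35, 6.30 and 6.18 on the iPS-NSC-labelled and 11.75, 11.66, 11.62 and 11.53 on the brain NSC arrays. The iPS-NSC-labelled arrays were low without overlap, at -4.97 ± 0.10 (SE, limma adjusted p = 5.28e-14) and -5.36 ± 0.09 (SE, limma adjusted p = 1.35e-14), and at -2.99 and -3.22 with its sets averaged. Gphn, which encodes gephyrin, the anchor of glycine and GABA-A receptors, was 9.56, 9.54 and 9.46 on the iPS-labelled, 6.68, 6.80 and 6.71 on the iPS-NSC-labelled and 9.72, 9.81, 9.61 and 9.68 on the brain NSC arrays. It was thus low on the same arrays as Glrb and Gabrg1, at -2.97 ± 0.08 (SE, limma adjusted p = 1.62e-12) against brain NSC.

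Neto1, a relative of Neto2, was lower at -3.12 ± 0.13 (SE) against iPS-labelled, and Nlgn1, a postsynaptic adhesion gene, at -3.0 ± 0.22 and -2.56 ± 0.20 (SE) against the iPS-labelled and brain NSC arrays. Gabarapl2, named for GABA-A receptor association and also an autophagy gene, was higher at 2.67 ± 0.14 and 2.35 ± 0.13 (SE). Pick1, an AMPA receptor scaffold gene, was higher at 1.40 ± 0.11 and 1.35 ± 0.10 (SE) and Cacng8, an AMPA receptor auxiliary subunit gene, at 1.27 ± 0.14 (SE) against brain NSC. With the mean of the probe sets Pick1 was 0.72 and 0.71 and Cacng8 0.77, and these were not called, while Nlgn1 was called at -1.40 and -1.29 and Gabarapl2 at 1.63 and 1.57. Between iPS-labelled and brain NSC arrays 1 gene was called higher and 2 lower, against 0.951% and 0.89% of all genes, with a median of 0.03. These were Neto1 at 1.14 ± 0.12 (SE, limma adjusted p = 3.85e-05), Cacng5 at -1.61 ± 0.19 (SE, limma adjusted p = 8.25e-05) and Dlg4, the PSD-95 scaffold gene, at -1.25 ± 0.13 (SE, limma adjusted p = 3.17e-05). With their sets averaged, Cacng5 and Dlg4 were at -0.87 and -0.70 and not called.

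Marker lists of the cells these cultures could hold moved with the same groups. The mean level of 8 pluripotency genes was 4.81 to 4.89 over the iPS-labelled, 11.88 to 11.99 over the iPS-NSC-labelled and 4.84 to 4.93 over the brain NSC arrays, and all 8 were called higher on the iPS-NSC-labelled arrays. The 7 measured neural stem cell genes averaged 10.96 to 11.02, 7.02 to 7.10 and 10.87 to 11.14, with 5 called lower there, and the 7 astrocyte genes 6.79 to 6.89, 5.36 to 5.41 and 6.74 to 6.94, with 3 lower. The 7 fibroblast genes, which feeder cells express, averaged 4.72 to 4.84, 5.72 to 6.75 and 4.68 to 4.75, with 4 called higher against iPS-labelled and 5 against brain NSC. The 12 neuron genes averaged 5.63 to 5.71, 6.13 to 6.20 and 5.78 to 5.83, with 3 higher and 1 lower. The 7 oligodendrocyte lineage genes averaged 6.71 to 6.79, 6.92 to 6.99 and 6.55 to 6.69, and the 6 microglia genes 4.70 to 4.76, 5.11 to 5.34 and 4.73 to 4.83. Fewer cells of a type and less RNA per cell cannot be told apart in such samples, and the part of other cell types in the receptor results was not tested.

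Replicates of a group correlated over all genes at 0.9898 to 0.9983, and brain NSC replicate 4 stood most apart in its group, with an SD of its differences from the other replicates of 0.317 to 0.367 against 0.179 to 0.226 among those 3. Without that array the counts of called members were the same in all 3 comparisons.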

How the data were processed

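The authors deposited log2 values that RMA had produced, per the submitters' processing notes, and no RMA version is stated there. RMA evens out the arrays' distributions and compresses differences between dim genes, and a shift shared by most genes would be largely removed. Of 45101 probe sets, 34945 had 1 symbol in the platform annotation, 932 had several and 9160 none, and 64 were controls; 34741 of the 34945 matched RefSeq of GRCm38.p6 by Entrez identifier. Members were the genes whose single symbol began with the name of a receptor family, and 2 probe sets with several symbols of which 1 is a member were left out.

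The 3 groups of the sample titles were fitted over all 10 arrays with limma 3.58.1 in R 4.3.3 (lmFit and eBayes, 7 residual and 5.95 prior degrees of freedom), with two-sided p-values adjusted by the Benjamini-Hochberg method over 18193 genes. Probe sets were fitted likewise over the 34945. The number of arrays limits the precision. The fit was tested on simulated data. Singled out by rule were, per comparison, the 10 largest called rises and falls of members and the 3 largest called of each companion list. The rule also took the member with the highest mean and the largest called difference of each class. Uncalled members with the highest mean of a class were mostly given by level alone. Other genes were given by level, or were picked out after seeing their values, as stated where they appear. The members and lists were chosen with earlier results of these data known. Alternatives were another probe set rule, normalization, filter and fold minimum, the groups compared alone, a replicate block and each array left out. Fits of single probe sets were added after the data were seen. Same-numbered arrays deviated together with correlations of -0.21 to 0.133, so the numbers were not taken as pairs. Figures used matplotlib 3.10.9 in Python 3.11.15, with numpy 2.4.6 and pandas 2.3.3.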

Additional observations from a re-analysis of the deposited data

Results flagged for a closer look

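Among the 79 members, 6 had 1 brain NSC array far from the other 3, where the gap to the nearest array, as a share of the range of the group, passed Dixon's critical value for 4 arrays, and chance gives about 1 such case in 20. This is 7.59% of the members, beside 7.21% of all genes, so the members' share is no result about them. For Chrna3, replicate 1 was lowest at 4.23 beside 4.39 to 4.4, a share of 0.957. In Chrna5, replicate 3 was lowest at 3.94 beside 4.17 to 4.21, a share of 0.841. Drd3 was lowest in replicate 4 at 3.61 beside 3.78 to 3.81, a share of 0.848, and Gabra5 in replicate 4 at 3.21 beside 3.56 to 3.61, a share of 0.864. Grik2 was highest in replicate 1 at 5.59 beside 5.14 to 5.17, a share of 0.934, and Htr5b in replicate 4 at 4.68 beside 4.51 to 4.54, a share of 0.837. All 6 genes are dim on these arrays, and none was called at 2-fold.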

How the results depend on the processing

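Of the called results for single genes and probe sets, 60 were recomputed under 972 alternative values, and 961 of these were still called, with 0 reversed. Of the 11 that were not called, those of Chrna9 were 0.83 in both comparisons with averaged probe sets. Dropping the fold minimum cannot undo a call, so the part of the 961 from that alternative was fixed in advance. The counts of called members moved as follows. With no fold minimum they were 3 higher and 4 lower between iPS-labelled and brain NSC, 25 and 13 between iPS-NSC-labelled and iPS-labelled, and 25 and 11 between iPS-NSC-labelled and brain NSC. With the mean of the probe sets, 2 were higher between iPS-NSC-labelled and iPS-labelled, Chrna7 and Grik3 in place of Chrna9, and 8 lower with Htr1b gained, and between iPS-NSC-labelled and brain NSC Grik3 replaced Chrna9 as the 1 higher member. Without dim genes, 0 were higher in either comparison of the iPS-NSC-labelled arrays, as Chrna9 was not tested. Leaving out each array in turn gave 7 to 8 lower members between iPS-NSC-labelled and iPS-labelled, the gain being Grin3a without iPS-labelled replicate 1, and 6 to 7 between iPS-NSC-labelled and brain NSC, where Chrm3 was gained without iPS-NSC-labelled replicate 1 and Grik5 without brain NSC replicate 1 or 3. Another quantile normalization gained Grin3a and Chrm3 as lower. The fit with the replicate number as a block gave 0 higher and 1 lower, 1 and 7, and 1 and 6, as without it. Only the Grm5 second probe set lost a call under the block, at 1.00 between iPS-labelled and brain NSC. No other background correction was tried without scanner files, and levels near the lower quartile of an array, 4.22 to 4.41, limit how well a fall can be sized.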
